A study of Mus musculus with 6 samples.

Results

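The genes described here encode 9 E3 ubiquitin ligases and 1 ligase adaptor of T cells: the Pellino genes Peli1, Peli2 and Peli3, Traf6, Cbl, Cblb, Itch, Nedd4, its adaptor gene Ndfip1, and Rnf128, which encodes GRAIL. They are 10 of the 22559 genes with a count in these samples, and they were chosen by name from the genotype comparison of these same samples, where Peli2 had stood out. Their values are therefore given as a description, and how many of them an all-gene fit called is given only as a count, from which nothing is read. An E3 ligase brings a ubiquitin-loaded enzyme to a chosen protein, and the ubiquitin chain it builds either sends that protein for degradation or serves as a platform for signaling. In T cells, Cbl-b, Itch and GRAIL are best known as brakes on activation and as ligases of the anergic state, whereas TRAF6 and the Pellinos are known for building signaling chains below Toll-like and IL-1 family receptors, and Peli1 also for restraining T cell receptor signals.

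RNA sequencing measured naïve CD4+ T cells that had been activated for 48 h under Th9 polarizing conditions. WT samples (n = 3) came from C57BL/6 mice that, by the study's methods, carried floxed Cul5 without Cre, and Cul5 cKO samples (n = 3) from Cul5fl/flCD4-Cre mice, in which Cre is expressed from a Cd4 promoter and so acts in developing T cells of both the CD4 and CD8 lineages. Mice were 8 to 10 weeks old, and both genotypes received 2 µg/ml plate-bound anti-CD3, 1 µg/ml anti-CD28, 2.5 ng/ml TGF-β, 20 ng/ml IL-4 and 10 µg/ml anti-IFN-γ. Whether each sample came from a separate mouse is not given in the labels, so p-values measure only the spread between these samples. The comparison asks how the loss of Cul5, the scaffold of another ubiquitin ligase, goes with the RNA levels of these ligases.

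Depth was between 23111689 and 23454552 counts in 5 samples and 3944803 in WT replicate 3, so values in that sample carry the largest counting error. The limit that 3 counts set was 0.759 CPM (counts scaled to the TMM-normalized library size) in WT replicate 3 and at most 0.133 CPM in the others, for counting error only. Cul5, the deleted gene, was at 64.4, 69.3 and 65.0 CPM in WT replicates 1, 2 and 3 but only at 10.6, 14.2 and 13.1 CPM in the Cul5 cKO replicates. The summed level of 6 CD4 T cell markers was between 1392 and 1439 CPM in WT and between 1255 and 1265 CPM in Cul5 cKO samples, that of 3 Th9 genes between 1095 and 1454 and between 1669 and 2474 CPM. Summed B cell markers were between 7.40 and 10.2 CPM in WT and reached 34.1 CPM in Cul5 cKO replicate 3, against at most 9.55 CPM in the other Cul5 cKO samples. Myeloid (2.59 to 10.9 CPM) and CD8 (4.30 to 11.7 CPM) sums overlapped between genotypes, and NK and erythroid sums were at most 0.253 and 1.31 CPM. The part of these cells in the values below was not tested, and in bulk samples fewer cells of a type cannot be told apart from less RNA per cell.

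Peli2 and Nedd4 were higher in every Cul5 cKO sample than in any WT sample, at about 2.56 and 2.01 times the WT level. Traf6 was also higher without overlap, but at only 1.12 times, and Itch was lower without overlap at 0.923 times. Peli1 and Cblb had lower means in Cul5 cKO cells with overlapping groups, and Cbl, Ndfip1, Peli3 and Rnf128 overlapped. Of the 10 genes, 5 had a positive and 5 a negative log2 fold change (Cul5 cKO over WT), and the median was 0.04 against -0.01 for the 12925 genes tested. Only Peli2 passed an adjusted p under 0.05 in edgeR's quasi-likelihood fit, a threshold that 1.03% of all genes passed in either direction and 0.611% as higher in Cul5 cKO cells. The groups did not overlap for 4 of the 10, as for 27.5% of all genes. The call of Peli2 was lost when WT replicate 2 or 3 was left out (2 genes called in all in either case), or Cul5 cKO replicate 3 (3 genes), and with counts scaled from TPM or limma on TPM. Since the genes were chosen from this contrast, nothing is read from these counts.

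**Figure D1:**
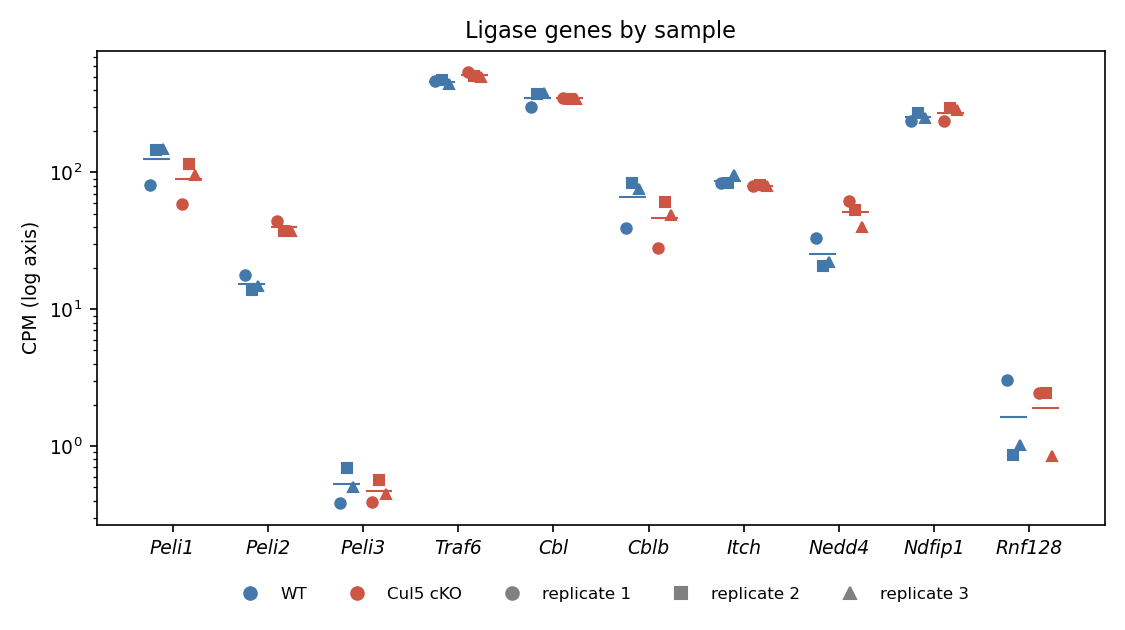
CPM of the 10 ligase genes on a log axis, in 3 WT (blue) and 3 Cul5 cKO (red) samples, with symbols for replicate number and lines at the group means. Peli2, Nedd4 and Traf6 lie higher and Itch lower in Cul5 cKO cells without overlap, and replicate 1 is the lowest of both genotypes for Peli1 and Cblb.

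The Pellino proteins are RING-type ligases that bind and ubiquitinate IRAK kinases. Peli2 (ENSMUSG00000021846, chromosome 14 of GRCm38, 48120823 to 48281575) was at 17.7, 13.8 and 14.7 CPM in WT replicates 1, 2 and 3. It was at 44.1, 37.5 and 37.5 CPM in Cul5 cKO replicates 1, 2 and 3. The lowest Cul5 cKO sample was thus well above the highest WT sample, although the value of WT replicate 3 rests on 58 counts. Means were 15.4 ± 2.04 and 39.7 ± 3.83 CPM (SD, n = 3 each), with a log2 fold change of 1.35 (SE 0.13). Leaving out 1 sample at a time gave log2 fold changes between 1.26 and 1.49.

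Peli1 (ENSMUSG00000020134, chromosome 11, 21091291 to 21150323) went the other way in its means. It was at 80.7, 146 and 148 CPM in WT replicates 1, 2 and 3 and at 58.8, 115 and 95.9 CPM in Cul5 cKO replicates 1, 2 and 3. WT replicate 1 lay below 2 of the 3 Cul5 cKO samples, so the groups overlapped. Each Cul5 cKO sample lay below the WT sample of the same number, but the numbers share no stated origin. The log2 fold change was -0.47 (SE 0.30) and lay between -0.71 and -0.23 when 1 sample at a time was left out. Peli3 (ENSMUSG00000024901, chromosome 19, 4929717 to 4943127) was close to the limit of detection, with 9, 16 and 2 counts in WT and 9, 13 and 10 counts in Cul5 cKO replicates 1, 2 and 3. Its log2 fold change of -0.18 (SE 0.39) turned to 0.17 without WT replicate 2, and no difference was detectable at this depth.

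The 250 bases upstream of the RefSeq start sites of Peli2 and Peli1 are shown because these related genes had fold changes of opposite sign. Capitals mark matches, on either strand, to motifs of factors whose activity was not measured here. The motifs are TTCNNNNGAA, which STAT6 prefers, TTCNNNGAA of other STAT factors, TGANTCA of AP-1, the kappaB motif of NF-κB, and the hypoxia core ACGTG or GCGTG. The Peli2 window (GRCm38.p6, plus strand, chr14:48120619-48120868) and the Peli1 window (plus strand, chr11:21091074-21091323) read 5′ to 3′:
Peli2: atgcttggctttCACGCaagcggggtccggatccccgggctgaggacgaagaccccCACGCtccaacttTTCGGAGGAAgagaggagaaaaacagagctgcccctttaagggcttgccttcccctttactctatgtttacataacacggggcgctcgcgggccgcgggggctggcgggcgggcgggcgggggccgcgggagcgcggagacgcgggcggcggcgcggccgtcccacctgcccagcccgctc
Peli1: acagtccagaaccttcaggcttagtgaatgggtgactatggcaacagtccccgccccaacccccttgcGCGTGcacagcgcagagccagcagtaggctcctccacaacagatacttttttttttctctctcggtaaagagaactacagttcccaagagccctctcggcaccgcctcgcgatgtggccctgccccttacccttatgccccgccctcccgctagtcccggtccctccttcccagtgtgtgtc

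In Peli2 a TTCNNNNGAA match begins at position -181 from the start site and hypoxia core matches at -238 and -194. Peli1 has only a hypoxia core match, at -182. Among 32851 RefSeq windows of 300 bases (250 before and 50 after a start site), 6.95% hold TTCNNNNGAA, 8.30% TTCNNNGAA, 7.81% TGANTCA, 8.46% the kappaB motif and 43.8% a hypoxia core, so the last is a frequent match. Windows were found for 8 of the 10 genes, and Peli2 was the only one among them with TTCNNNNGAA. These matches describe letters and not binding.

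TRAF6 is a RING-type ligase that, with the E2 pair encoded by Ube2n and Ube2v1, builds signaling chains below IL-1 and Toll-like receptors. Traf6 (ENSMUSG00000027164, chromosome 2, 101678429 to 101701669) was at 463, 473 and 439.6 CPM in WT replicates 1, 2 and 3 and at 538, 509 and 499 CPM in Cul5 cKO replicates 1, 2 and 3. All Cul5 cKO samples were higher, by a margin that was small beside the level. The log2 fold change was 0.17 (SE 0.06).

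The CBL proteins attach ubiquitin to activated receptors and kinases. Cbl (ENSMUSG00000034342, chromosome 9, 44142976 to 44234049) was at 301, 372 and 380.5 CPM in WT and at 350.2, 346 and 344 CPM in Cul5 cKO replicates 1, 2 and 3. The Cul5 cKO samples lay within the range of the WT samples, with a log2 fold change of -0.02 (SE 0.09). Cblb (ENSMUSG00000022637, chromosome 16, 52031225 to 52208048), whose product limits activation without CD28 signals, was at 39.5, 83.7 and 75.4 CPM in WT and at 28.1, 61.2 and 48.9 CPM in Cul5 cKO replicates 1, 2 and 3. As with Peli1, replicate 1 was the lowest of each genotype and the groups overlapped. Each Cul5 cKO sample again lay below the WT sample of the same number, a pairing with no stated basis. The log2 fold change of Cblb was -0.51 (SE 0.35).

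The NEDD4 family ligases carry WW domains that bind proline-rich motifs, and NDFIP1 is a membrane adaptor that recruits and activates them. Nedd4 (ENSMUSG00000032216, chromosome 9, 72662346 to 72749852), whose product is known to act on Cbl-b in T cells, was at 33.3, 20.7 and 22.0 CPM in WT replicates 1, 2 and 3. It was at 62.1, 53.0 and 39.9 CPM in Cul5 cKO replicates 1, 2 and 3. The groups did not overlap, and replicate 1 was the highest of each genotype. Means were 25.3 ± 6.91 and 51.7 ± 11.2 CPM (SD, n = 3 each), with a log2 fold change of 1.0 (SE 0.22) that lay between 0.85 and 1.29 when 1 sample at a time was left out.

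RefSeq gives Nedd4, the other gene with a fold change near a doubling, a pair of start sites, the second of which lies within the gene. The 250 bases upstream of each are shown with the same capitals (plus strand, chr9:72662081-72662330 and chr9:72693048-72693297):
Nedd4 first start: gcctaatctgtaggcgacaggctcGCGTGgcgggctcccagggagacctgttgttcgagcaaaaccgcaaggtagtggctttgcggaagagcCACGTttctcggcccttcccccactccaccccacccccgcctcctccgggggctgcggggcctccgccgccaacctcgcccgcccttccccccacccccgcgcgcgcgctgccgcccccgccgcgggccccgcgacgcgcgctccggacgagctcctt
Nedd4 second start: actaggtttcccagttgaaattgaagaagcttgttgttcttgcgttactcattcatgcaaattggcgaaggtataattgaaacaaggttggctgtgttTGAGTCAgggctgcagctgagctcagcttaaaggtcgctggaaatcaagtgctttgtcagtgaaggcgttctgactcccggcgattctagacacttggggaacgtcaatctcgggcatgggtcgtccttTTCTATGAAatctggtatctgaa

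The first Nedd4 window holds hypoxia core matches at -226 and -158. The second holds a TGANTCA match at -152 and a TTCNNNGAA match at -23. No match to TTCNNNNGAA, the motif found in Peli2, lies in either, and no window of the 8 genes matched the kappaB motif.

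Itch (ENSMUSG00000027598, chromosome 2, 155133509 to 155226855), whose product degrades JunB, was at 83.2, 82.9 and 94.9 CPM in WT and at 79.5, 80.2 and 80.1 CPM in Cul5 cKO replicates 1, 2 and 3. The gap between the groups was narrow, and the log2 fold change was -0.12 (SE 0.07). Ndfip1 (ENSMUSG00000024425, chromosome 18, 38410396 to 38465303) was at 237, 273 and 249.8 CPM in WT and at 238, 294 and 284 CPM in Cul5 cKO replicates 1, 2 and 3. These groups overlapped, with a log2 fold change of 0.10 (SE 0.10).

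Rnf128 (ENSMUSG00000031438, chromosome X, 139563316 to 139673145) encodes GRAIL, a transmembrane ligase of anergic T cells. It was at 3.03, 0.865 and 1.01 CPM in WT and at 2.43, 2.45 and 0.845 CPM in Cul5 cKO replicates 1, 2 and 3. The samples of both genotypes fell across the same range, and WT replicate 3 rests on 4 counts. The log2 fold change of 0.13 (SE 0.59) was 1.07 without WT replicate 1 and -0.23 without WT replicate 2.

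Replicate 1 was the lowest of each genotype for Peli1 and Cblb and the highest of each for Peli2 and Nedd4, although for Nedd4 in Cul5 cKO cells replicate 2 lay closer to replicate 1 than to replicate 3. Genes of the lists examined below also set replicate 1 of both genotypes apart, in either direction. Egr3 was at 2.69, 181 and 122 CPM in WT and 1.22, 120 and 120 CPM in Cul5 cKO replicates 1, 2 and 3. Rnf125 was at 15.5, 11.2 and 12.4 CPM in WT and 14.6, 9.60 and 9.65 CPM in Cul5 cKO replicates 1, 2 and 3. The cause was not tested. By the study, the 6 samples belong to 1 experiment, and the labels name no batch. In replicates 2 and 3 alone (n = 2 each), the log2 fold change was 1.41 for Peli2, 1.14 for Nedd4, -0.48 for Peli1 and -0.54 for Cblb, each within 0.25 of its value over all samples. For Rnf128 it was 0.86.

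**Figure D2:**
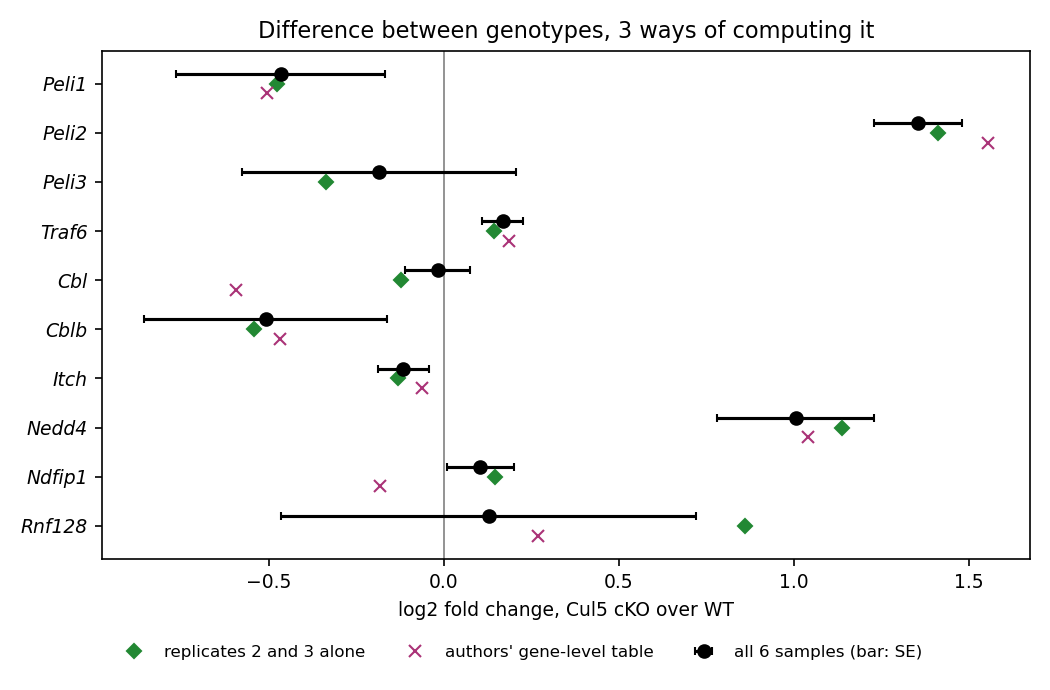
Log2 fold change of Cul5 cKO over WT for the 10 ligase genes from all 6 samples (black, bars are SE), from replicates 2 and 3 alone (green) and from the authors' gene-level table (crosses, absent for Peli3). Peli2 and Nedd4 lie at or above 1 in all 3, and Cbl and Ndfip1 lie apart in the table.

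To compare levels between genes, TPM (abundance scaled to transcript length and library) were summed by gene. In WT cells Ndfip1 was the highest at 269.6 ± 41.2 TPM (SD, n = 3), followed by Traf6 (113 ± 10.9), Peli1 (58.2 ± 17.7), Cbl (48.2 ± 7.76), Itch (24.3 ± 0.804), Cblb (19.4 ± 7.58), Nedd4 (8.18 ± 1.93), Peli2 (5.98 ± 2.0), Rnf128 (0.885 ± 0.636) and Peli3 (0.599 ± 0.344). Ranges over the WT samples overlapped between Peli1 and Cbl, Itch and Cblb, Nedd4 and Peli2, and Rnf128 and Peli3. In Cul5 cKO cells the TPM order was Ndfip1, Traf6, Cbl, Peli1, Itch, Nedd4, Cblb, Peli2, Rnf128 and Peli3, and the ranges of Nedd4 and Cblb, of Cblb and Peli2, of Cbl and Peli1, and of Rnf128 and Peli3 overlapped. Peli1 thus stood above Peli2 in TPM in both genotypes.

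Most genes were carried by 1 protein-coding transcript. Peli2-201, of 5900 bases, held between 76.3% and 94.4% of the Peli2 counts, and its level was 3.06 ± 0.687 TPM in WT and 8.77 ± 0.757 TPM in Cul5 cKO samples (SD, n = 3 each). The summed TPM of Peli2 did not overlap either but lay closer together, at 5.74, 4.11 and 8.09 in WT and 12.9, 9.41 and 11.0 in Cul5 cKO replicates 1, 2 and 3. In WT replicate 3, Peli2-201 made up 31.3% of the summed TPM, and the transcript Peli2-207 was assigned 2.97 TPM there, against 0 in the other WT samples. Nedd4-201 held between 86.5% and 93.0% of the Nedd4 counts, at 5.91 ± 1.78 TPM in WT and 12.1 ± 2.97 TPM in Cul5 cKO samples (SD, n = 3 each). Reads of 50 bases are divided between transcripts by estimation. Genes annotated as overlapping these 10, where measured, had means of at most 0.114 CPM.

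The authors' gene-level table holds 9 of the 10 genes, all except Peli3. In it Cbl was at 2.88, 3.81 and 4.79 CPM in WT and 2.53, 2.80 and 2.15 CPM in Cul5 cKO replicates 1, 2 and 3, between 0.627% and 1.26% of the summed values. Ndfip1 was between 29.3 and 43.6 CPM there, and Cblb between 51.2% and 60.9% of the summed value. Cbl-211 held between 96.4% and 99.3% of the Cbl counts in the transcript files. The log2 fold change in the table was -0.59 for Cbl and -0.18 for Ndfip1, so these genes give different pictures in the 2 deposited sources, and the cause was not tested. For Peli2, Nedd4, Peli1 and Traf6 the table gave 1.55, 1.04, -0.50 and 0.19.

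**Figure D3:**
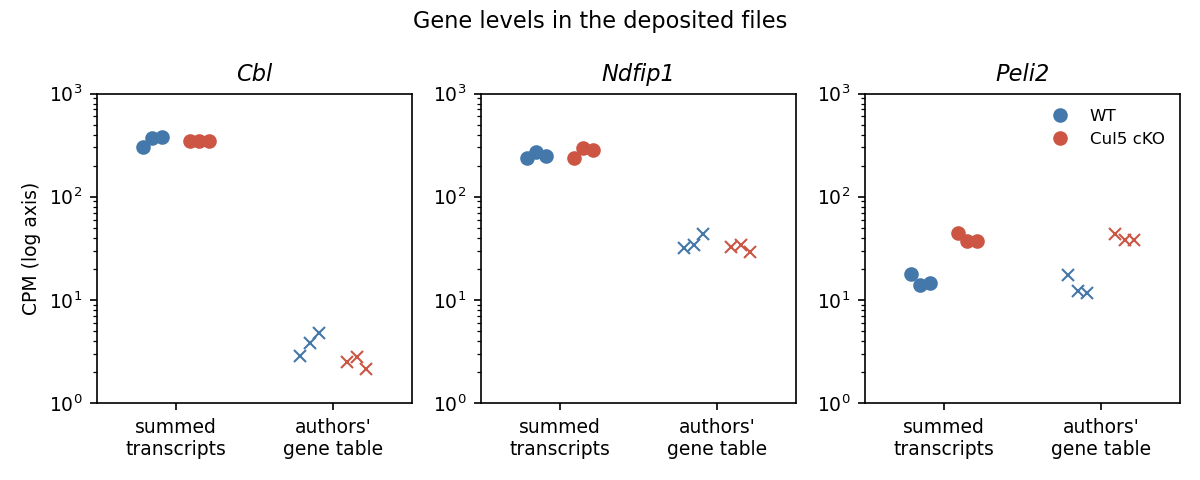
CPM of Cbl, Ndfip1 and Peli2 on a log axis in WT (blue) and Cul5 cKO (red) samples, as summed transcripts (dots) and in the authors' gene-level table (crosses). Cbl is at 301 to 380.5 CPM as a sum and at 2.15 to 4.79 CPM in the table, whereas Peli2 is close in both.

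Among the genes whose pattern over the 6 samples was nearest to that of Peli2 were Cavin4 (0.053), Egln3 (0.109), Frmd4a (0.137) and Pir (0.154). These distances are root mean square differences of log2 CPM, computed with a small prior count and centred on each gene's mean. Egln3, which encodes a prolyl hydroxylase that marks HIF proteins, was at 84.7, 67.1 and 67.3 CPM in WT and 171, 159 and 171 CPM in Cul5 cKO replicates 1, 2 and 3. Like Peli2 it was highest in WT replicate 1 among WT samples. Frmd4a had means of 9.40 ± 1.67 and 22.0 ± 2.89 CPM (SD, n = 3 each). Cavin4 and Pir were under 1.70 CPM in every sample and under the limit of 0.759 CPM in WT replicate 3, so the prior count weighs most on their distances.

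Around these ligases, 70 genes in 6 lists were examined: NEDD4 relatives and adaptors, CBL relatives and partners, the TRAF6 and Pellino pathway, deubiquitinases and ubiquitin-editing proteins, ligase substrates, and anergy genes with other T cell ligases. All but Hecw1 and Cblc were tested (68), with 32 higher and 36 lower, and the median of their log2 fold changes was -0.01, against -0.01 for all genes tested. Tnip2 alone of the 68 passed the test, beside 1.03% of all genes, so nothing is read from this count. The lists were chosen with earlier results of these data known, so the adjusted p of Tnip2 is not independent support. The product of Tnip2, ABIN-2, binds A20 and the kinase TPL2 and restrains NF-κB signaling.

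Tnip2 (chromosome 5, 34496087 to 34513991) rose in Cul5 cKO cells. It was at 27.0, 29.8 and 25.1 CPM in WT and at 41.1, 39.7 and 44.0 CPM in Cul5 cKO replicates 1, 2 and 3, with no overlap. The difference was 0.60 on the log2 scale with an SE of 0.09, and edgeR gave it an adjusted p of 0.0325 (Benjamini-Hochberg, all genes tested). It missed the threshold without WT replicate 2 or 3 or without any 1 of the Cul5 cKO samples, with an adjusted p of up to 0.160 without Cul5 cKO replicate 3 in edgeR. It also missed it with counts scaled from TPM (adjusted p of 0.149 in edgeR), in the limma fits of TPM (0.187 and 0.193) and in limma on the authors' table (0.168). Its log2 fold change over all alternatives was between 0.55 and 0.69.

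Among the 10 deubiquitinases and editing proteins, 5 were higher and 5 lower, from -0.16 for Usp8, which encodes a deubiquitinase of endosomes, to Tnip2. Of the 18 genes of the TRAF6 and Pellino pathway, 12 were higher and 6 lower with none past the test, and log2 fold changes ran from -0.32 for Irak2, a kinase below IL-1 receptors, to 0.60 for Tifa, a TRAF6 adaptor at under 1.10 CPM in every sample. At the 1.03% of all genes called, a count of 0 among 18 says little. The groups did not overlap for 6 of the 18, 3 higher and 3 lower, beside 27.5% of all genes tested, so nothing is read from this count. The higher were Myd88 (log2 fold change 0.16) and Ube2n and Ube2v1 (0.23 each), which encode the E2 partners of TRAF6. The lower were Irak1 (-0.12), Tab2 (-0.15) and Traf5 (-0.26). These 6 genes are named after their values were seen. Their adjusted p values from the same edgeR fit were between 0.150 and 0.280. In the authors' table Ube2n was at between 11.0% and 24.4% of the summed value.

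Of the 13 CBL relatives and partners tested, 4 were higher and 9 lower, from -0.32 for Sh3kbp1, which encodes the CBL partner CIN85, to 0.10 for Crk, an adaptor. Of the 7 NEDD4 relatives and adaptors tested, 2 were higher and 5 lower, from -0.42 for Nedd4l to 0.49 for Hecw2, which was at under 1.70 CPM in every sample and turned to -0.23 without Cul5 cKO replicate 1. Nedd4l, the closest relative of Nedd4, was at 22.7, 22.5 and 23.5 CPM in WT and at 15.5, 19.2 and 16.7 CPM in Cul5 cKO replicates 1, 2 and 3, without overlap and on the other side of 0 from Nedd4. In the authors' table, where its level was between 8.15% and 24.4% of the summed value, its log2 fold change was 0.38.

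Of the 8 ligase substrates, 4 were higher and 4 lower. Junb, a target of Itch, had the highest log2 fold change at 0.51 (SE 0.27). Rel, a target of Peli1, had the lowest at -0.43 (SE 0.39). The groups overlapped for both Junb and Rel. Ligases act on the proteins, which were not measured, so these RNA levels do not show ligase action. Of the 12 anergy genes and other T cell ligases, 5 were higher and 7 lower. Dgka, which encodes a diacylglycerol kinase of anergic cells, was at 172, 251 and 263 CPM in WT and 124, 156 and 115 CPM in Cul5 cKO replicates 1, 2 and 3, without overlap, and its log2 fold change of -0.79 (SE 0.18) had an adjusted p of 0.0897 in the same edgeR fit. March1 had the highest at 1.04, at under 0.80 CPM in every sample.

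**Figure D4:**
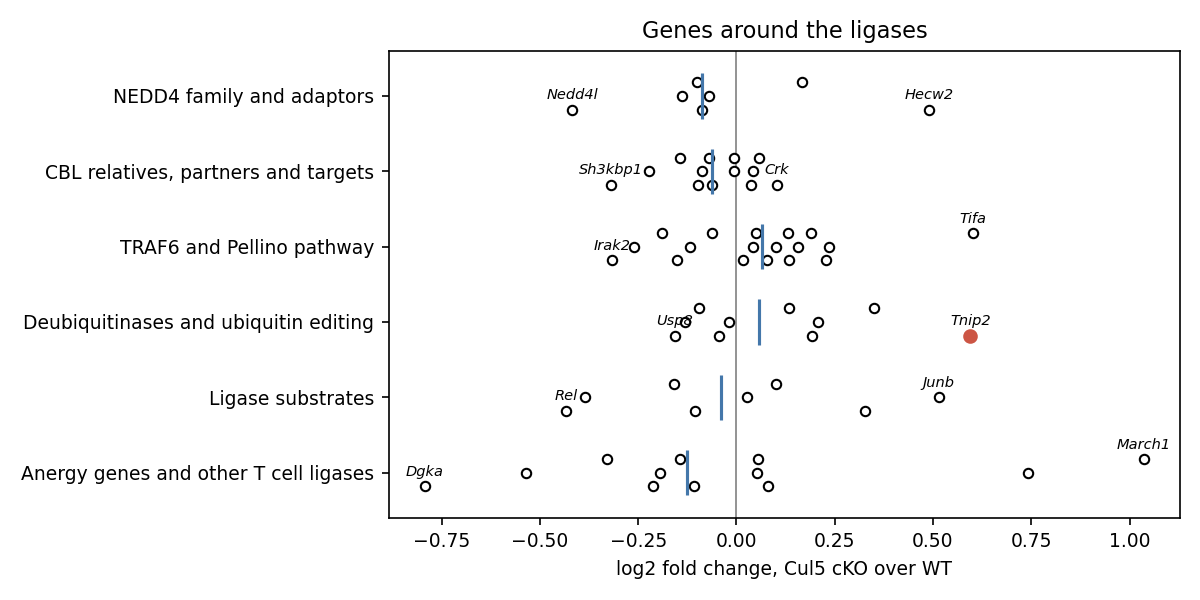
Log2 fold change of Cul5 cKO over WT for the 68 tested genes of the 6 lists, with the gene that passed an adjusted p under 0.05 filled in red, list medians as blue lines, and the lowest and highest gene of each list named. Genes of each list lie on both sides of 0, and Tnip2 (0.60) is the filled point.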

How the data were processed

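Reads (single-end, 50 bp, poly-A) were assigned by the authors to GRCm38 transcripts by kallisto 0.46.2 and scaled in edgeR 3.34.0. The authors deposited, per sample, estimated counts (not normalized) and TPM per transcript, plus a table of log2 CPM by gene (TMM-scaled) whose fold change and p-value columns were not used here. Culture conditions, ages and read length come from the study's methods and the genotypes from the labels. Transcripts were joined to GENCODE vM21, which matched 116640 of 119414. Sums per gene were rounded and fitted in edgeR 4.0.16 (R 4.3.3): expression filter at its defaults (12925 genes), TMM, quasi-likelihood test, Benjamini-Hochberg adjustment, threshold 0.05. Each SE is the absolute log2 fold change divided by the square root of the quasi-likelihood F statistic. It is not the SD between replicates. The edgeR fit was tested on simulated counts. Alternatives used limma 3.58.1, DESeq2 1.42.0 and the settings in the closing section. The 10 genes, the lists and the alternatives were chosen with earlier results of these data known. Named genes are the 10, Cul5, the 5 nearest to Peli2, list genes that passed the test and the extremes of each list; 1 of the 5 is not reported here. Promoter sequences are RefSeq GRCm38.p6.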

Additional observations from a re-analysis of the deposited data

How the results depend on the processing

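Over 18 alternatives, 158 of 167 recomputed log2 fold changes of the 10 ligase genes moved by less than 1 SD between replicates, and 9 moved by more. Peli1, Cblb and Itch stayed negative and Peli2, Nedd4 and Traf6 positive in each alternative that gave them. Peli2 was at 1.0 with counts scaled from TPM, 0.82 and 0.92 in limma fits of TPM with pseudocounts of 1 and 0.1, and 1.55 in the gene-level table. Cbl (-0.59 to 0.06), Ndfip1 (-0.18 to 0.19), Rnf128 (-0.23 to 1.07) and Peli3 (-0.44 to 0.17) changed sign. The number of genes called, 133, was 228 with no filter beyond 1 count, 61 with counts scaled from TPM, 1688 with replicate 1 as a term, 1153 in replicates 2 and 3 alone, 693 with DESeq2, 27 and 30 in those TPM fits, 42 with limma on the authors' table and 2362 at the study's own threshold, an unadjusted p under 0.05. In the same order of settings, the list genes called (1) were 2, 0, 11, 7, 3, 0, 0, 0 and 14, and the ligase genes called (1) were 2, 0, 4, 4, 2, 0, 0, 1 and 3. With each sample left out, genes called ranged from 2 to 316, list genes from 0 to 2 and ligase genes from 0 to 2. No ligase gene was called when WT replicate 2 or 3 was left out, or Cul5 cKO replicate 3. The cause was not tested. With a replicate block, 848 genes, 6 list genes and 4 ligase genes (Peli1, Peli2, Cblb and Nedd4) were called. The numbers share no stated origin, the deviations of same-numbered samples correlated at 0.37, 0.21 and 0.02, and WT replicate 3 correlated best with Cul5 cKO replicate 2. Depth limits Peli3 and Rnf128, and all values of WT replicate 3.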

Other observations

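A few transcripts of Cblb and Ndfip1 had shares of their gene that differed in 1 sample. Cblb-203 held between 16.7% and 30.5% of the Cblb counts in 5 samples and 0.00395% in Cul5 cKO replicate 1, where Cblb-201 held 55.7%. An Ndfip1 transcript of 838 bases that is annotated for nonsense-mediated decay held 27.1% of the Ndfip1 counts in WT replicate 3 and between 2.71% and 8.59% in the other samples, and Ndfip1-204 held 49.8% in that sample against 75.6% to 80.3% elsewhere. These shares are estimates from 50 base reads and were not tested between genotypes.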
